A study of Mus musculus with 6 samples.

Results

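The genes described are 10 transcriptional regulators that act in Treg (regulatory T cells, a CD4+ lineage that restrains immune responses): Foxp3, the 5 genes of the Ikaros zinc finger family (Ikzf1 to Ikzf5), Satb1, Bach2, Runx1 and Cbfb. They were taken by gene symbol from a table of 32801 symbols, and all 10 were present. RNA of thymic Treg was sequenced from NOD mice, a strain prone to spontaneous autoimmune diabetes, and from C57BL/6 (B6) mice, both at 3 weeks of age, with 3 libraries per strain. The sort gate was GFP-, CD4+CD8- and Thy1.1+ for both strains; which loci carry GFP and Thy1.1 is not said in the labels. Nor do they say that replicates came from separate animals, so the tests measure the spread between these libraries. The single comparison asks how expression in NOD thymic Treg differs from that in B6 thymic Treg.

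Foxp3 defines the Treg lineage and acts with partner factors. Ikaros family proteins bind DNA through zinc fingers, pair with each other through a further set of fingers, and recruit chromatin-remodelling and histone deacetylase complexes; Helios (Ikzf2) and Eos (Ikzf4) are abundant in Treg. Satb1 organizes chromatin loops in developing T cells and takes part in opening Treg enhancers in the thymus, Bach2 restrains effector differentiation, and Runx1 with its non-DNA-binding partner Cbfb binds the Foxp3 locus and keeps Foxp3 expressed.

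Values are normalized counts, taken to be read counts rounded after division by the size factor of their library. Library sums ran from 16097369 to 17625903. A gene was called when its adjusted p was below 0.05 in limma-trend on log2(value + 1), adjusted over 16442 tested genes. Fold changes on that scale understate the change of genes with low values. All 10 regulators passed the filter on low values. Libraries are named by the number in their column. NOD library 10 and B6 library 12 lay low on the second principal component, which held 15.5% of the variance (scores of -32.0 and -29.4, against -14.2 to 41.7 in the other 4 libraries). NOD library 10 was the lowest NOD library for 6 of the 10 genes and B6 library 12 the lowest B6 library for 6, with Ikzf1, Ikzf2, Satb1 and Cbfb in both sets. Results are therefore also given without these libraries where a call or direction changes.

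Satb1 was the only one of the 10 genes called, and it was higher in NOD. Limma called 9.89% of all tested genes, 4.59% as higher and 5.3% as lower in NOD, so 1 call among 10 genes is close to the background. Ikzf1 and Ikzf2 also had 95% intervals clear of 0 without passing the adjusted threshold. Such intervals, with an unadjusted limma p below 0.05, were common: 3340 of the 16442 tested genes had them. The libraries of the strains did not overlap for Satb1 and Ikzf1, that is, for 2 of 10 genes, where this holds for 24.1% of all tested genes.

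**Figure D1:**
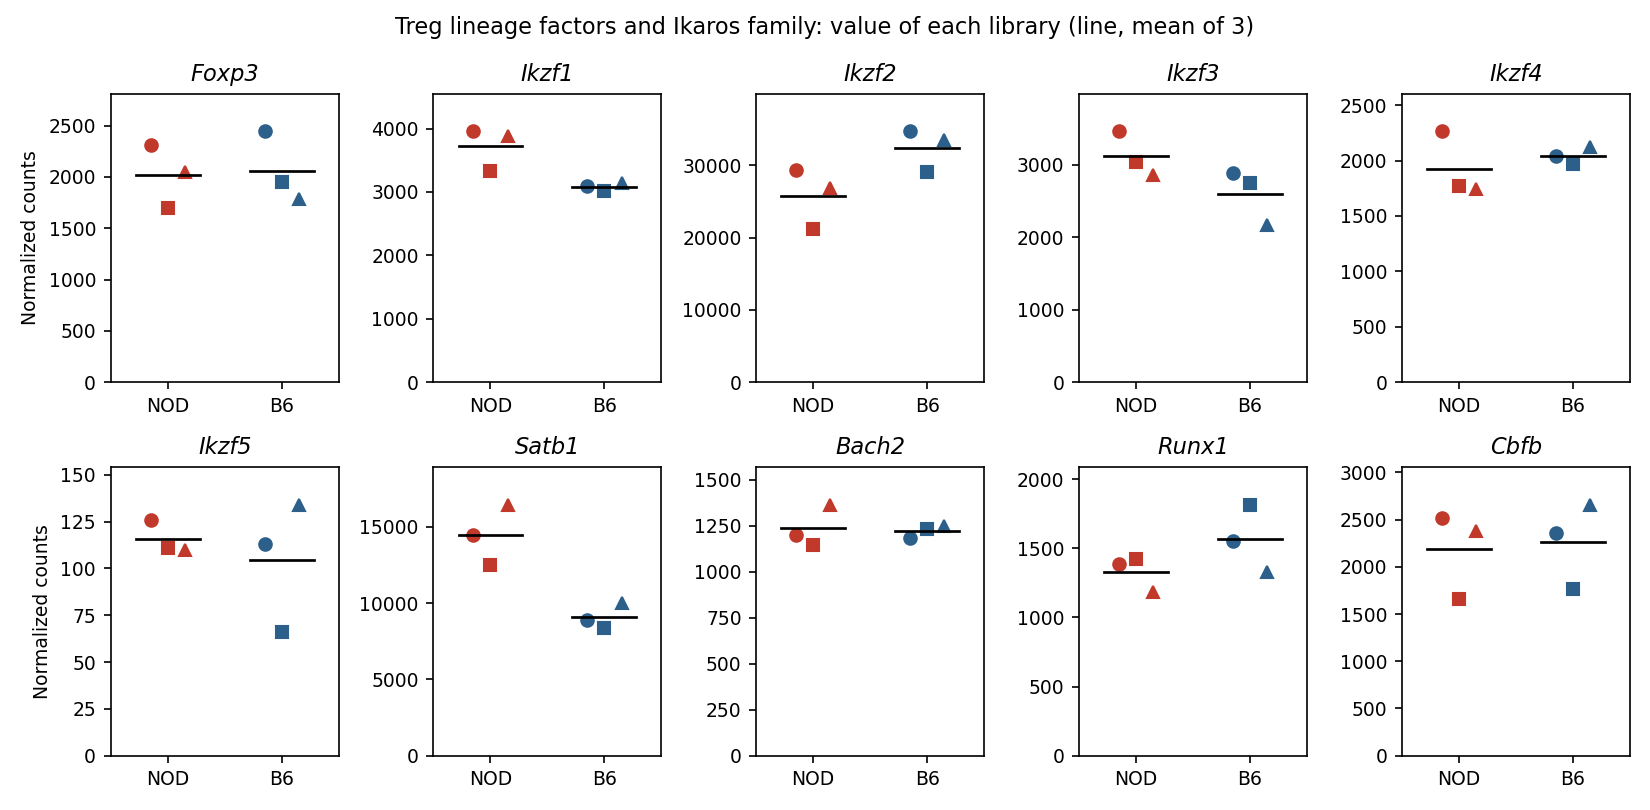
Normalized counts (linear axes from 0) of the 10 genes in each library, with NOD in red at the left of each panel and B6 in blue at the right; symbols mark single libraries (circle, NOD 2 or B6 4; square, NOD 10 or B6 12; triangle, NOD 18 or B6 20) and lines the mean of 3. Satb1 and Ikzf1 are the genes whose strains do not overlap, with Satb1 at 12519 to 16443 in NOD and 8362 to 9992 in B6.

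Foxp3 itself differed between the strains by less than the spread of the libraries. It had 2310, 1701 and 2044 normalized counts in NOD libraries 2, 10 and 18, against 2446, 1954 and 1784 in B6 libraries 4, 12 and 20. The ranges overlap almost fully, and the log2 fold change was -0.03 (95% interval -0.35 to 0.29, limma adjusted p = 0.95). Its direction turned without NOD library 10 (0.089), without B6 library 4 (0.10) and without both NOD library 10 and B6 library 12 (0.057). In the authors' deposited table, its log2 fold change was -0.03 with a standard error of 0.33 (adjusted p = 0.98).

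The Foxp3 gene (chromosome X, 7573644 to 7595245, mm10, plus strand) shares exonic sequence with other annotated genes. Flicr, a non-coding RNA of the same strand that lies over the start of Foxp3 and is known in mouse to dampen Foxp3 expression, had 276, 192 and 232 normalized counts in NOD libraries, against 265, 236 and 275 in B6 libraries. It was not called (log2 fold change -0.16, 95% interval -0.54 to 0.22, limma adjusted p = 0.70). Ppp1r3f, on the opposite strand, averaged 82.3 ± 8.33 in NOD libraries and 81.3 ± 20.5 in B6 libraries (n = 3 each, ± SD). Ccdc22, also opposite and overlapping, is listed at 0 in all 6 libraries. The strand setting of the authors' counting is not given in the sources used here, so reads of overlapping genes cannot be told apart with certainty.

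Runx1 and Cbfb, the paired subunits of the core-binding factor, did not pass the test. Runx1 had 1388, 1424 and 1185 normalized counts in NOD libraries 2, 10 and 18, against 1555, 1816 and 1329 in B6 libraries 4, 12 and 20. The log2 fold change was -0.23 (95% interval -0.52 to 0.07, limma adjusted p = 0.41), and the strains overlap. Cbfb had 2519, 1662 and 2375 in NOD against 2362, 1767 and 2659 in B6, with 1 low library in each strain (NOD 10 and B6 12). Its log2 fold change was -0.05 (-0.45 to 0.34, limma adjusted p = 0.92), and it turned to 0.13 without NOD library 10 and to 0.074 without B6 library 20. Within a library, Runx1 had 0.636 ± 0.193 counts for each count of Cbfb in NOD and 0.729 ± 0.271 in B6, so the spread of this ratio exceeded the strain difference.

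Bach2 was the steadiest of the 10 genes. It had 1200, 1148 and 1365 normalized counts in NOD libraries, against 1185, 1233 and 1247 in B6 libraries, and the B6 values lie within the NOD range. The log2 fold change was 0.02 (95% interval -0.23 to 0.26, limma adjusted p = 0.96), and the direction turned when libraries were rescaled to equal totals (-0.024) and without NOD library 18 (-0.057) or B6 library 4 (-0.0066). The within-strain SD of its log values was lower than that of all but 9.03% of tested genes.

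Satb1 (chromosome 17, 51736187 to 51833290, mm10, minus strand) had 14454, 12519 and 16443 normalized counts in NOD libraries 2, 10 and 18, against 8908, 8362 and 9992 in B6 libraries 4, 12 and 20. The lowest NOD library lay above the highest B6 library. The log2 fold change was 0.67 ± 0.12 (SE; 95% interval 0.39 to 0.94, limma adjusted p = 0.0049). The call held with any single library left out (0.57 to 0.77, adjusted p of 0.0014 to 0.034) and without NOD library 10 and B6 library 12 (0.71, adjusted p = 0.015). It was lost in limma without the trend (adjusted p = 0.059), in a range of 0.00024 to 0.059 over all alternatives. The authors' deposited table gave 0.67 with a standard error of 0.14 (adjusted p = 3.71e-05); there, 9.75% of the 21988 genes with an adjusted p were below 0.05.

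Satb1 is also abundant in immature CD4+CD8+ thymocytes, so the markers of that stage are given beside it. Of 9 such markers, 7 were tested, 1 was higher (Cd8a) and 1 lower in NOD (Rag1), and their summed level ran from 1612 to 1971 normalized counts in NOD and from 1364 to 1575 in B6. Most of that sum was Cd1d1, and without it the strains overlapped, at 371 to 517 in NOD and 383 to 510 in B6. Dntt (8 to 17 in NOD, 25 to 34 in B6) and Arpp21 (5 to 20 in NOD, 24 to 33 in B6) lay lower in NOD without overlap and were not called. Ptcra, a chain of the early receptor, had 0 or 1 counts in NOD and 0 in B6, and Rag2 had 0 to 2 in NOD and 0 to 9 in B6. Their part in the Satb1 difference was not tested. In sorted but bulk RNA, fewer cells that express a gene and less RNA per cell cannot be told apart.

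Ratios within a library do not depend on the scaling between libraries. Satb1 had 6.26, 7.36 and 8.04 counts for each count of Foxp3 in NOD libraries 2, 10 and 18, against 3.64, 4.28 and 5.60 in B6 libraries 4, 12 and 20. The NOD libraries were all above the B6 libraries, with means of 7.22 ± 0.90 in NOD and 4.51 ± 0.999 in B6 (n = 3 each, ± SD). Against Ikzf2, a pair chosen after the values were seen, Satb1 stood at 0.565 ± 0.063 in NOD and 0.281 ± 0.022 in B6, a mean ratio 2.01 times as high in NOD.

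RefSeq start sites (GRCm38.p6) were found for 7 of the 10 genes, and Ikzf2, Ikzf3 and Ikzf4 had no entry. The stretches below show the bases before a start of the genes whose strains did not overlap, as far as they hold no annotated exon, on the minus strand for Satb1 (chr17:51832673-51832818) and on the plus strand for Ikzf1 (chr11:11685675-11685924). Capitals mark GC boxes (GGGCGG on either strand), the motif of the SP family of promoter factors, and neighbouring boxes overlap.
Satb1: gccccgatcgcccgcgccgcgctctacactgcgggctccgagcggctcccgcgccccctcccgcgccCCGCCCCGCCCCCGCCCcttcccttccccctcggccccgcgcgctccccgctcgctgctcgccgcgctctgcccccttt
Ikzf1: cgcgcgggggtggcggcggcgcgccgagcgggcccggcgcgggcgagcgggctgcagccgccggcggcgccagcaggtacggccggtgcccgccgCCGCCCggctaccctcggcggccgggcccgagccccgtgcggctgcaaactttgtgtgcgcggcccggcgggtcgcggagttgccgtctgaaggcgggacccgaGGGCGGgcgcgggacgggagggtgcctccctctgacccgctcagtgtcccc

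Both stretches are rich in G and C, at 82.9% of 146 bases for Satb1 and 82.0% of 250 bases for Ikzf1. The window before the other RefSeq start of Ikzf1 holds no GC box and is 47.6% G and C. Windows before the other RefSeq starts of Satb1 hold no GC box either, while those of Ikzf5 and Cbfb, whose strains overlapped, do. GC boxes occur in 4 of the 14 windows of 250 bases before the starts of these genes, and in 32.7% of 32851 such windows genome-wide. Motifs of the regulators themselves were rare in the same windows: a forkhead core (TGTTTA, either strand) stood before 1 Foxp3 start, an Ikaros motif (TGGGAA) before 1 Satb1 start, and RUNX motifs (TGTGGT or TGCGGT) before none. Genome-wide, 12%, 21.6%, 14.0% and 5.1% of windows hold these 4 motifs in that order. The data do not show which start is used, and a match is a description of the letters only.

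Satb1 holds 5 annotated same-strand transcripts within its body that GENCODE lists as awaiting experimental support, and all 5 were called higher in NOD. Gm36931 (chromosome 17, 51766643 to 51771443, mm10), which shares exonic bases with Satb1, had 1321, 1402 and 1765 normalized counts in NOD libraries 2, 10 and 18, against 755, 1060 and 872 in B6 libraries 4, 12 and 20 (log2 fold change 0.74 ± 0.15 SE, limma adjusted p = 0.0085). The other 4 lie in introns. C230085N15Rik had 1065, 1072 and 1492 in NOD against 597, 1026 and 555 in B6 (0.77 ± 0.22, limma adjusted p = 0.048).

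Gm37248 had 954, 773 and 1355 in NOD libraries against 574, 654 and 538 in B6 libraries (0.77 ± 0.18, limma adjusted p = 0.021). E430014B02Rik had 599, 528 and 851 in NOD against 326, 469 and 344 in B6 (0.78 ± 0.20, limma adjusted p = 0.026). The strains overlapped in 5830444F18Rik, at 490, 379 and 648 in NOD against 241, 384 and 244 in B6 (0.80 ± 0.23, limma adjusted p = 0.047). The 5 fold changes, 0.74 to 0.80, lie within the 95% interval of Satb1 itself. Most of these calls are narrow: without NOD library 18, or without B6 library 4, none of the 5 passed (adjusted p of 0.052 to 0.21), without the trend none passed, with other scalings C230085N15Rik and 5830444F18Rik did not pass (adjusted p of 0.068 to 0.086), and all 5 stayed at 0.55 or more on the log2 scale with any library left out. Gm6934, opposite to Satb1 across its start, averaged 144 ± 27.1 in NOD and 101 ± 20.1 in B6 and was not called (adjusted p = 0.23). Since strand use in the counting is unknown and total RNA holds unspliced transcripts, these values cannot be told apart from reads of unspliced Satb1 RNA.

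**Figure D2:**
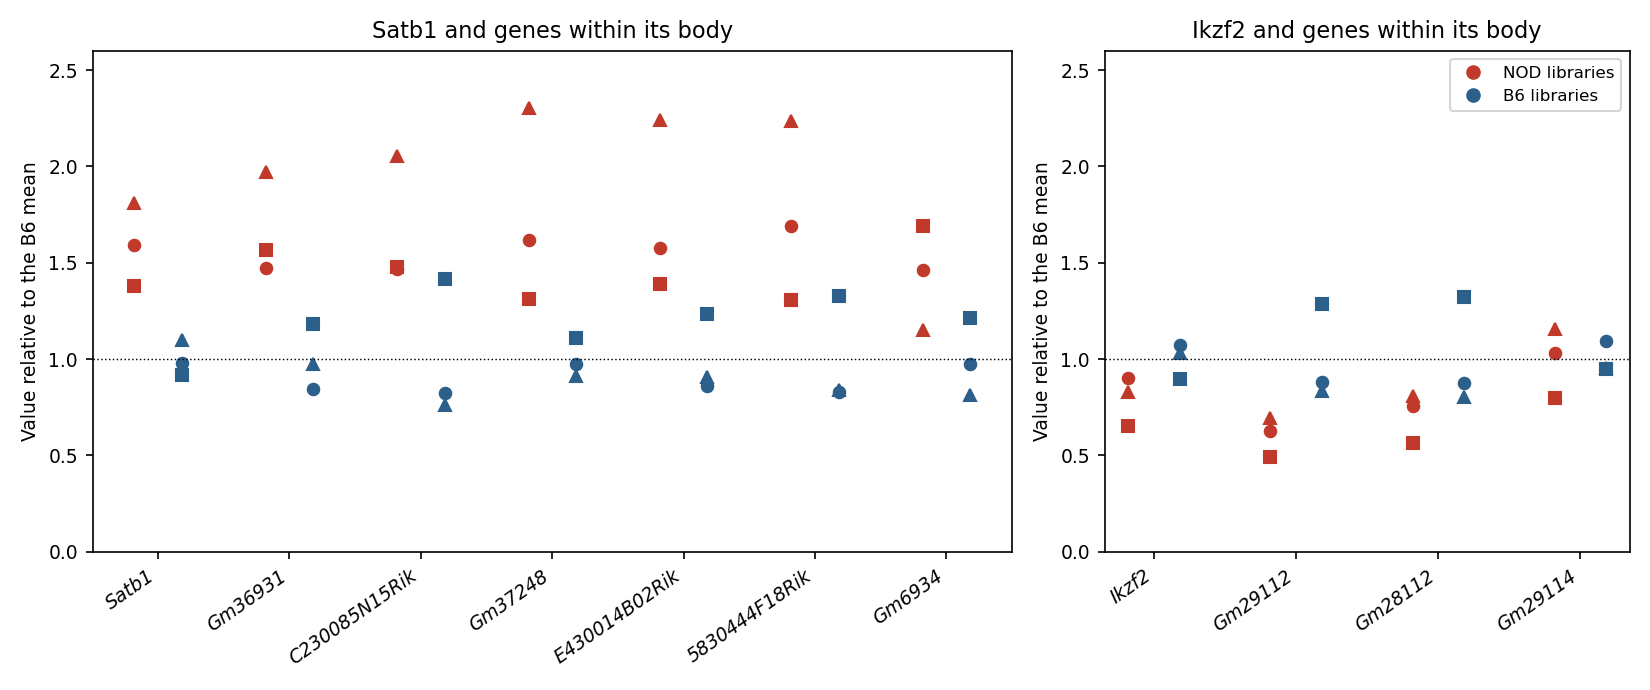
Value of each library divided by the B6 mean of the same gene (linear axis), for Satb1 and 6 genes that overlap it (left) and for Ikzf2 and 3 genes that overlap it (right), with NOD libraries in red at the left of each B6 set in blue; symbols mark libraries (circle, NOD 2 or B6 4; square, NOD 10 or B6 12; triangle, NOD 18 or B6 20). The 5 same-strand genes in Satb1 lie higher in NOD together with it, while Gm29114, opposite to Ikzf2, shows overlapping strains.

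Ikzf2, which encodes Helios, had the highest level per kilobase of the 10 genes. It had 29334, 21183 and 26920 normalized counts in NOD libraries 2, 10 and 18, against 34737, 29076 and 33498 in B6 libraries 4, 12 and 20. NOD library 2 lay just above B6 library 12, and the other NOD libraries below every B6 library. The log2 fold change was -0.34 ± 0.14 (SE; 95% interval -0.65 to -0.03), which did not pass the adjusted threshold (limma adjusted p = 0.20). With a covariate shared by NOD library 10 and B6 library 12, chosen after the data were seen, it did (adjusted p = 0.035), in a range of 0.035 to 0.45 over all alternatives. For each count of Foxp3 there were 12.8 ± 0.36 counts of Ikzf2 in NOD and 16.0 ± 2.47 in B6, with no overlap between the strains (at most 13.2 in NOD and at least 14.2 in B6).

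Within introns of Ikzf2 (chromosome 1, 69531214 to 69687245, mm10, minus strand), the same-strand transcript Gm29112 had 721, 563 and 797 normalized counts in NOD libraries, against 1011, 1477 and 958 in B6 libraries. It fell in NOD (log2 fold change -0.71 ± 0.18 SE, limma adjusted p = 0.028). The call did not survive leaving out NOD 2, NOD 10, B6 4 or B6 12 singly (adjusted p of 0.059 to 0.11), and without both NOD library 10 and B6 library 12 the value was -0.38 (adjusted p = 0.12). Gm28112, a second intronic transcript, had 822, 615 and 881 in NOD against 955, 1440 and 873 in B6 and was not called (-0.48 ± 0.19, adjusted p = 0.19). Gm29114, opposite to the end of Ikzf2, averaged 1056 ± 192 in NOD and 1062 ± 88.7 in B6 and was not called (-0.02 ± 0.14, adjusted p = 0.96). As for Satb1, reads of unspliced Ikzf2 RNA cannot be told apart from separate intronic transcripts.

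Ikzf1, the founding Ikaros gene, had 3959, 3333 and 3890 normalized counts in NOD libraries 2, 10 and 18, against 3091, 3017 and 3142 in B6 libraries 4, 12 and 20. Every NOD library lay above every B6 library. For each count of Foxp3, however, there were 1.86 ± 0.13 counts of Ikzf1 in NOD and 1.52 ± 0.25 in B6. These ratios overlapped between the strains (1.71 in NOD library 2 and 1.76 in B6 library 20). The log2 fold change was 0.27 ± 0.10 (SE; 95% interval 0.04 to 0.50), short of the adjusted threshold (limma adjusted p = 0.16). It passed without NOD library 10 (0.35, adjusted p = 0.045) and with limma's library weights (0.32, adjusted p = 0.025), in a range of 0.025 to 0.44 over all alternatives. The authors' deposited table gave 0.27 with a standard error of 0.13 (adjusted p = 0.20).

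Ikzf3, which encodes Aiolos, had 3464, 3033 and 2857 in NOD libraries, against 2889, 2746 and 2164 in B6 libraries, with an overlap of the lowest NOD and the highest B6 library. Its log2 fold change was 0.27 ± 0.13 (SE; 95% interval -0.02 to 0.55, limma adjusted p = 0.28). Ikzf4, which encodes Eos, a corepressor partner of Foxp3, had 2265, 1770 and 1746 in NOD against 2038, 1969 and 2120 in B6. NOD library 2 was above all B6 libraries and the other NOD libraries below them (-0.09, 95% interval -0.36 to 0.17, limma adjusted p = 0.76). Ikzf5, which encodes Pegasus, had the lowest level per kilobase, with 126, 111 and 110 in NOD against 113, 66 and 134 in B6 (0.20, 95% interval -0.38 to 0.78, limma adjusted p = 0.76). Its interval is the widest of the 10, and its direction turned to -0.09 without B6 library 12.

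**Figure D3:**
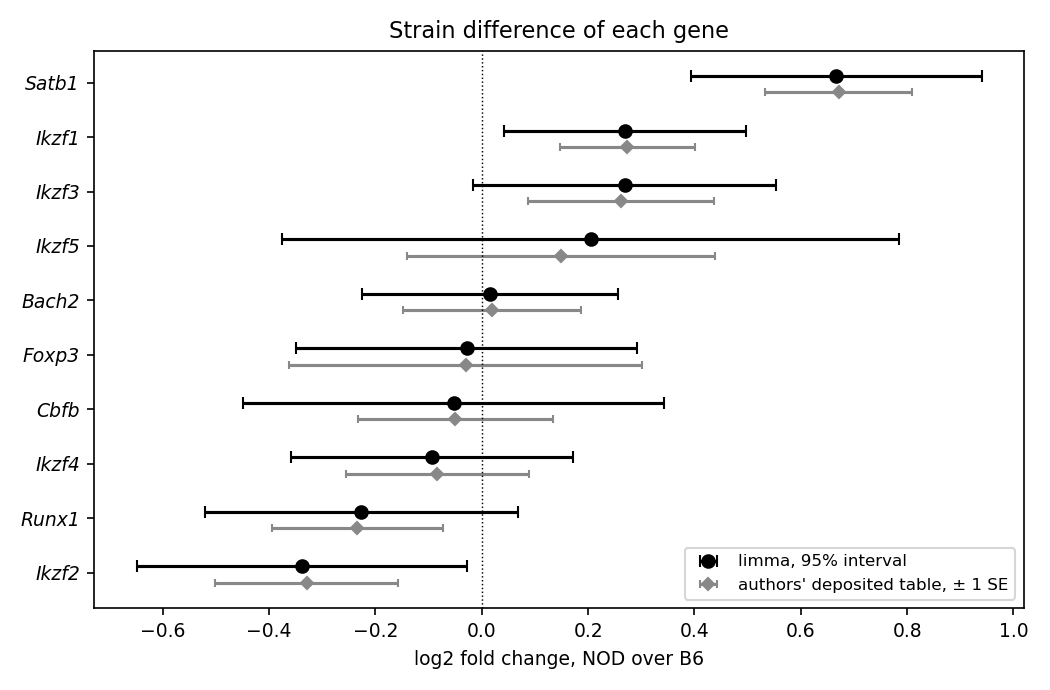
log2 fold change, NOD over B6, of the 10 genes from limma with its 95% interval (black) and from the authors' deposited table with 1 SE to either side (grey), ordered by the limma value. Satb1 at 0.67 has the interval farthest from 0, and Ikzf1 (0.27) and Ikzf2 (-0.34) have intervals just clear of 0. Among all 16442 tested genes, 3340 had an unadjusted limma p below 0.05.

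Levels of different genes compare only per length, here normalized counts per kilobase of annotated exon. Ikzf2 led in both strains, with a level per kilobase of 2223 ± 361 in NOD libraries and 2793 ± 256 in B6 libraries (n = 3 each, ± SD), above that of 98.6% of 16304 tested genes with a length. In NOD, Satb1 (761 ± 103), Ikzf1 (645 ± 59.4), Cbfb (628 ± 132), Foxp3 (441 ± 66.7), Ikzf3 (356 ± 35.7) and Ikzf4 (321 ± 48.9) followed, and the ranges of 1 SD to either side overlapped between all neighbours in this order. Bach2 (125 ± 11.4) and Runx1 (111 ± 10.7), which did not differ beyond their spread, stood clearly lower, and Ikzf5 was last (20.2 ± 1.57).

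In B6 the order after Ikzf2 was Cbfb (level per kilobase 650 ± 131), Ikzf1 (534 ± 10.9), Satb1 (478 ± 43.6), Foxp3 (450 ± 75.1), Ikzf4 (341 ± 12.6), Ikzf3 (297 ± 43.9), Runx1 (130 ± 20.3), Bach2 (123 ± 3.27) and Ikzf5 (18.2 ± 6.09). Ranges of 1 SD to either side overlapped there between Cbfb and Ikzf1, Satb1 and Foxp3, Ikzf4 and Ikzf3, and Runx1 and Bach2. Satb1 was thus at rank 2 in NOD and at rank 4 in B6; per kilobase of coding sequence its rank was 2 in NOD and 3 in B6. The level per kilobase of Foxp3 was higher than that of 88.9% of tested genes and that of Ikzf5 higher than 24.6%.

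The share of each Ikaros gene in the summed level per kilobase of the family was set out in every library. Helios (Ikzf2) made up 63.0%, 59.6% and 63.9% in NOD libraries 2, 10 and 18, against 70.9%, 68.0% and 71.2% in B6 libraries 4, 12 and 20. Ikaros (Ikzf1) made up 17.1%, 18.8% and 18.6% in NOD against 12.7%, 14.2% and 13.4% in B6. Neither share overlapped between the strains.

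Aiolos (Ikzf3) made up 9.88%, 11.3% and 8.995% in NOD against 7.83%, 8.52% and 6.10% in B6, also without overlap. Eos (Ikzf4) averaged 9.03% ± 0.88 in NOD and 8.57% ± 0.45 in B6, and Pegasus (Ikzf5) 0.571% ± 0.055 in NOD and 0.453% ± 0.133 in B6, both with overlapping strains. The summed level of the family was 3566 ± 475 in NOD and 3983 ± 275 in B6, which overlapped. Shares depend on each other, since a lower share of one gene raises the rest, and no test was made on them.

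**Figure D4:**
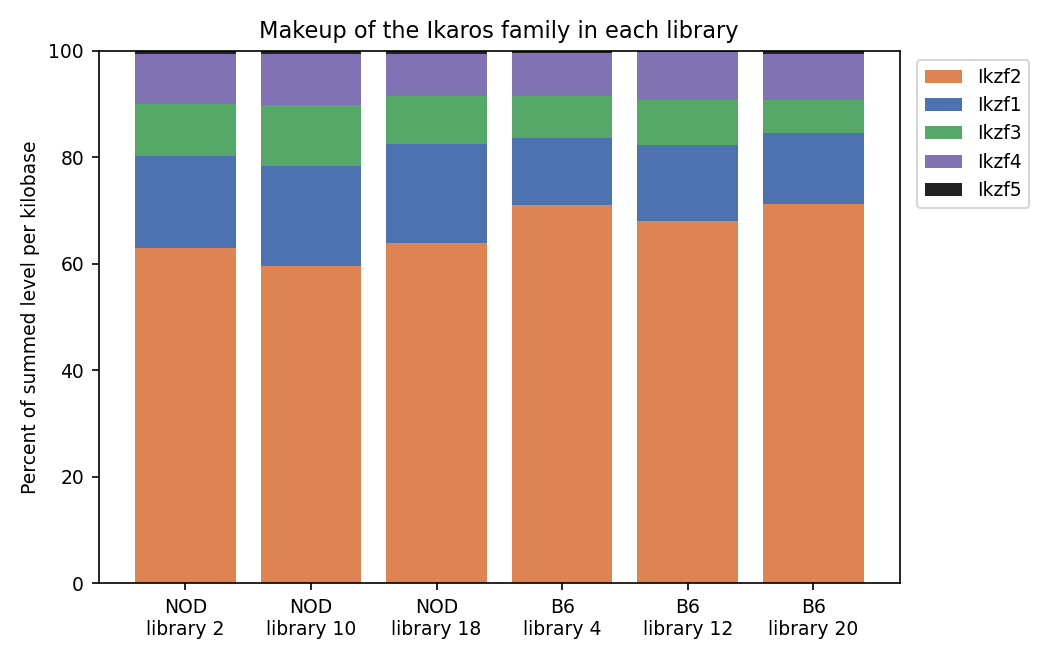
Share of each Ikaros family gene in the summed level per kilobase of the 5 genes (percent, stacked to 100) in each library, with the 3 NOD libraries at the left and the 3 B6 libraries at the right. Ikzf2 takes 59.6% to 63.9% in NOD and 68.0% to 71.2% in B6.

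Partners and targets of the 10 regulators were described from lists of 107 genes, chosen with earlier results of these data known. Of these, 103 were tested, 5 were called higher and 16 lower in NOD (20.4%, against 9.89% of all tested genes). Because of that choice, the difference between these shares was not read as a result. The higher count was 9 without NOD library 10, and the lower count 9 without B6 library 4. The median log2 fold change was -0.04 over these genes and 0.01 over all tested genes. Of 22 regulators of the Foxp3 locus, 0 were higher and 4 lower: the orphan nuclear receptors Nr4a2 (1105 ± 67.9 in NOD, 2327 ± 616 in B6, log2 fold change -1.04 ± 0.17, limma adjusted p = 0.0020) and Nr4a3 (-0.78 ± 0.13), the histone methyltransferase gene Kmt2d (-0.81 ± 0.18) and the NF-kB subunit gene Rel (-0.43 ± 0.12, limma adjusted p = 0.046). Leaving out B6 library 4 ended the call of Kmt2d (adjusted p = 0.063), and 2 genes of the list were lower without that library or without the trend. Rel passed narrowly: its call ended with any single library but B6 20 left out, with other scalings and with other filters (adjusted p of 0.052 to 0.19). In the other direction, 2 genes of the list were higher without NOD library 10, and 1 with array weights or without both NOD library 10 and B6 library 12. Stat5a (-0.36 ± 0.14), Stat5b (-0.05 ± 0.12), Smad3 (-0.01 ± 0.14), Foxo1 (0.28 ± 0.13) and Runx3 (0.13 ± 0.14) were not called.

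Of 12 tested cofactors of Foxp3 and FOXP family genes, 1 was called, Hif1a, the oxygen-sensing factor, with a mean of 16911 ± 1908 normalized counts in NOD libraries, against 12039 ± 1037 in B6 libraries (log2 fold change 0.49 ± 0.12, limma adjusted p = 0.023). It did not pass once NOD 18, B6 4 or B6 12 was left out (adjusted p of 0.062 to 0.11). Among 18 genes of the complexes that Ikaros proteins recruit, 1 was lower, the corepressor gene Ctbp2 (65.3 ± 10.1 in NOD, 112 ± 6.81 in B6, adjusted p = 0.044), and that call was lost with any single library left out. The remodelling ATPase gene Chd4 (-0.09 ± 0.10) and the deacetylase gene Hdac1 (0.07 ± 0.11) were not called. Of 7 tested RUNX genes and corepressors, the Groucho corepressor gene Tle1 was lower (-0.68 ± 0.16, limma adjusted p = 0.017), a call that ended without B6 library 4 (adjusted p = 0.087) or B6 library 12 (adjusted p = 0.0501).

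Around Bach2, 12 partner and rival genes held 1 call, the stress-response factor gene Nfe2l2, lower in NOD (395 ± 45.0 against 627 ± 61.6 in B6, log2 fold change -0.67 ± 0.14, limma adjusted p = 0.0091). Mafk, which encodes a small MAF partner of Bach2 (-0.14 ± 0.20), and Bach1 (-0.04 ± 0.13) were not called. Of 8 genes that Bach2 is known to repress, only Gzmb, the gene of granzyme B, was called (3480 ± 943 in NOD, 1336 ± 137 in B6, 1.34 ± 0.18, limma adjusted p = 0.00056), while Prdm1 (0.07 ± 0.27) and Klrg1 (-0.36 ± 0.15) were not.

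Genes that Foxp3 is known to induce split in direction, although Foxp3 itself was not called. Of 12, 2 were higher, the orphan receptor gene Gpr83 (log2 fold change 1.46 ± 0.20) and the costimulatory receptor gene Icos (0.69 ± 0.11), and 4 lower, the gene of the ectoenzyme CD73, Nt5e (-1.55 ± 0.14), Capg (-1.17 ± 0.14), Cd83 (-1.01 ± 0.12) and Lrrc32 (-0.52 ± 0.11). All 6 limma adjusted p lay between 3.0e-05 and 0.012. Lrrc32 did not pass without NOD library 2 (adjusted p = 0.065) or B6 library 4 (adjusted p = 0.059). Il2ra (-0.13 ± 0.17) and Ctla4 (0.22 ± 0.12) were not called. Of 10 tested genes that Foxp3 is known to repress, the phosphodiesterase gene Pde3b was higher (1215 ± 185 in NOD, 563 ± 144 in B6, 1.13 ± 0.18, limma adjusted p = 0.0017), and the IL-7 receptor gene Il7r (-0.44 ± 0.11) and the phosphatase gene Ptpn22 (-0.52 ± 0.11) were lower. Il7r did not pass once NOD 18, B6 4 or B6 20 was left out (adjusted p of 0.0697 to 0.11).

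Of 13 transcription factors of T cell identity other than Satb1, 0 were higher and 3 lower: Myb (598 ± 136 in NOD, 1096 ± 232 in B6, log2 fold change -0.88 ± 0.19, limma adjusted p = 0.012), the inhibitor gene Id2 (-0.72 ± 0.11) and the HMG-box factor gene Tox (-0.58 ± 0.14). Myb did not pass without B6 library 12 (adjusted p = 0.054) or B6 library 20 (adjusted p = 0.053), nor Tox without NOD 18, B6 4 or B6 12 (adjusted p of 0.057 to 0.12), so that 1 gene of the list was lower without B6 library 12. The higher count was 1 without NOD library 10, and 2 with array weights or with the covariate shared by NOD library 10 and B6 library 12. Tcf7 (0.32 ± 0.13), Lef1 (0.37 ± 0.14), Bcl11b (0.30 ± 0.11), Ets1 (0.15 ± 0.13), Themis (0.05 ± 0.13) and Tcf12 (0.03 ± 0.10) lay above 0 and were not called. Id3 (-0.50 ± 0.21), Gata3 (-0.25 ± 0.13), Zbtb7b (-0.15 ± 0.18) and Tcf3 (-0.12 ± 0.20) lay below 0 and were not called either. The median of the list was -0.12.

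Across these lists, Kmt2d, Rel, Hif1a, Nfe2l2, Lrrc32, Il7r, Ptpn22, Myb and Tox did not pass without the trend (limma adjusted p of 0.0505 to 0.19). Without both NOD library 10 and B6 library 12, the calls of Kmt2d, Rel, Hif1a, Ctbp2, Tle1, Ptpn22, Myb and Tox ended (limma adjusted p of 0.0506 to 0.196).

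**Figure D5:**
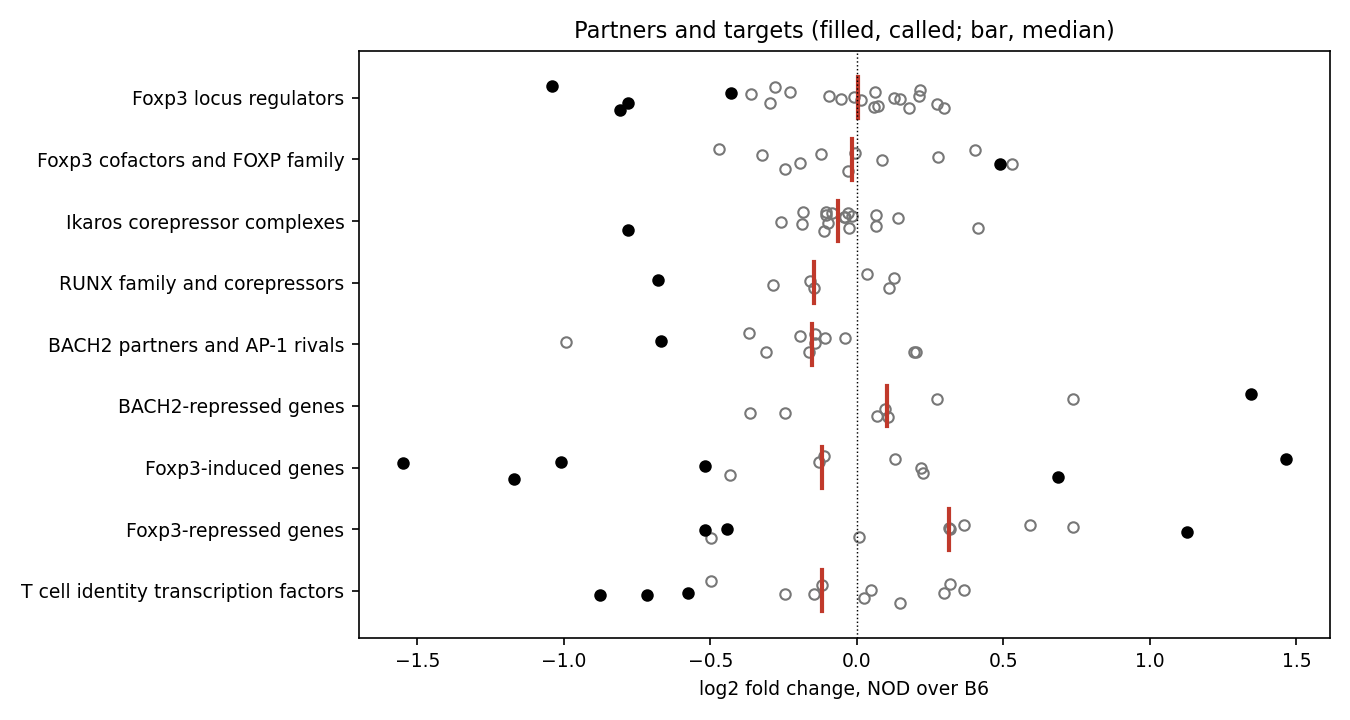
log2 fold change, NOD over B6, of the tested partner and target genes in 9 lists; each point is a gene, filled where limma called it, and red bars mark list medians, with a random vertical offset for display. Filled points lie on both sides of 0 in the Foxp3-induced list (2 higher, 4 lower) and the Foxp3-repressed list (1 higher, 2 lower).

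The genes with the profile over the 6 libraries nearest to that of Satb1, by root mean square difference of centred log2 values among 8212 genes, were the non-coding RNA Firre (0.04), the Tec-family kinase gene Txk (0.06) and Armt1 (0.08). Txk had 1984, 1528 and 2027 normalized counts in NOD libraries 2, 10 and 18, against 1112, 1099 and 1241 in B6 libraries 4, 12 and 20. For Foxp3, Ano6 (0.06) and Asxl2 (0.08) were among the nearest, and their strains overlapped as those of Foxp3 did. The likeness of these genes to Satb1 or Foxp3 follows from their choice on the same 6 libraries. Of 91 tested genes within 250 kilobases of the 10 genes and outside their bodies, 6 were called (6.59%), 1 of them among the 4 beside Satb1.

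All 9 genes of the Treg marker list were tested and present in every library. Foxp3, Il2ra, Ctla4, Tnfrsf18 and Ikzf2 were not called. The rest of the list, Cd4, Cd3e, Cd3g and Trac, is also expressed by other CD4+ T cells. Of these, Cd3e was higher and Trac lower in NOD. Dendritic cell markers summed to 1257 to 1462 normalized counts in NOD and 2157 to 2188 in B6, with 3 of the 4 tested lower in NOD, mostly from Zbtb46 and Cd74, with Clec9a at 0 in NOD and 0 or 1 in B6. B cell, macrophage, NK, gamma-delta T cell, thymic epithelium and erythroid markers summed to at most 253 in NOD and 321 in B6 per list. Of 4 tested gamma-delta T cell markers, 2 were called higher in NOD: Tcrg-C4 (14 to 21 in NOD, 1 to 4 in B6) and Sox13 (13 to 21 in NOD, 0 to 5 in B6). Both lay near the floor and passed the filter on low values only through the NOD libraries. Trdc (log2 fold change 0.31) and Tcrg-C1 (-0.77) were not called. Of 2 tested NK markers, Tyrobp was lower in NOD (3 to 13, against 18 to 44 in B6). Eomes, at 21 to 76 in NOD and 6 to 17 in B6, was not called (log2 fold change 1.86, limma adjusted p = 0.0501). Ikzf1 and Ikzf3 are also expressed in B cells, whose markers summed to 181 to 253 in NOD and 230 to 268 in B6, and Cd83 in dendritic cells; the part of the dendritic cell and B cell lists in the values above was not tested.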

How the data were processed

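RNA of 3 NOD and 3 B6 thymic Treg samples was sequenced from total RNA (TruSeq, per the labels' protocols). Trimmomatic, STAR, DESeq2 and the mm10 build are named in the submitters' processing notes. Not given in the sources used here are the counter, the annotation and whether counting used strand. The deposited table holds scores that the authors normalized before they were deposited, per the file headers, which mark these columns as norm. The headers do not say how, and the scores are taken to be counts divided by size factors and rounded. Beside the scores, the table gives the authors' log2 fold change, its standard error, p-value, adjusted p-value, mean and test statistic. The deposited mean is 0.88 to 1.41 times the 6-column mean for the 10 genes, so the authors' values are kept apart. The numbering of the columns differs from the replicate numbering of the labels, and columns were assigned by strain only. Raw read totals are not analysed here.

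Genes reaching 10 normalized counts in 3 or more libraries (2 or more after a library was left out) were tested with limma 3.58.1 in R 4.3.3 on log2(value + 1), two-sided, with Benjamini-Hochberg adjustment over all of them. The fit was also run on simulated counts with the same dispersion in every gene and no deviating library. That setting differs from these libraries, so the run does not measure how the fit performs on them. Replicates differed beyond sampling noise (chi-square per gene of 15.0 to 113), so none was merged. Coordinates and lengths were taken from GENCODE M21 (GRCm38, the same assembly as mm10); 98.9% of symbols matched. Named genes were the 10 regulators, up to 3 called genes per list and direction, and the 3 nearest profiles of Foxp3 and Satb1, of which 1 is not reported here; Rel, Lrrc32, markers, genes within gene bodies and genes given as not called were chosen after their values were seen. The members and lists were chosen with earlier results of these data known. Alternatives changed the pseudocount, filter, scaling, trend, weights, libraries and gene length.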

Additional observations from a re-analysis of the deposited data

How the results depend on the processing

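No paired analysis was possible because the columns carry library numbers that are not the replicate numbers of the labels, and no label ties a NOD column to a B6 column. Without the trend, Satb1 kept 0.67 on the log2 scale but lost its call, leaving 0 of the 10 genes called and 8 partner or target genes lower. Array weights gave 1247 genes higher and 1434 lower, 2 of the 10 genes higher (Satb1 and Ikzf1 at 0.32), 9 partner genes higher, Cbfb at 0.074 and Gm29114 at 0.036. With a mean of at least 100 normalized counts, 454 genes were higher and 508 lower, where fewer genes were tested. Equal totals turned Bach2 to -0.024. With a single library left out, genes called higher ran from 490 (without NOD library 18) to 781 and lower from 569 (without B6 library 4) to 1011, the 10 genes gave 1 or 2 higher calls, and partner genes 4 to 9 higher and 9 to 16 lower. Under the same omissions the log2 fold change ran from -0.13 to 0.10 for Foxp3, 0.22 to 0.35 for Ikzf1, -0.091 to 0.41 for Ikzf5, -0.057 to 0.067 for Bach2, -0.22 to 0.13 for Cbfb and -0.14 to 0.13 for Gm29114. Chosen after seeing the data, the omission of NOD library 10 and B6 library 12 gave 0.057 for Foxp3, -0.063 for Ikzf5 and 0.093 for Gm29114, and a covariate for them called Ikzf2 lower (-0.34, 1 of the 10 genes) and 8 partner genes higher. With coding length in place of exon length, ranks in NOD became 3 for Cbfb, 4 for Ikzf1, 5 for Ikzf3, 6 for Foxp3, 7 for Runx1, 8 for Ikzf4 and 9 for Bach2, and shares of the Ikaros family became 74.99% in NOD and 81.3% in B6 for Ikzf2, 10.8% in NOD and 7.68% in B6 for Ikzf1, 4.21% in NOD and 3.84% in B6 for Ikzf4, and 0.406% in NOD and 0.310% in B6 for Ikzf5. Apart from the change of length and of genes tested, the cause was not tested. Equal totals moved the median of all genes from 0.01 to -0.03 and the share of calls that were higher from 46.4% to 42.2%. The 95% intervals of Cbfb (-0.45 to 0.34) and Ikzf5 (-0.38 to 0.78) are the widest of the 10, and any log2 difference within them is compatible with these values.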
